A study of Mus musculus with 6 samples.

Results

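The keratins of the normal layers of the epidermis between hair follicles were examined in epidermis labelled ARPC4 ko and in wild-type epidermis. They comprised the basal-layer keratins Krt5, Krt14 and Krt15, the suprabasal keratins Krt1, Krt10, Krt2, Krt77, Krt78 and Krt80, and Krtdap. Krtdap is not a keratin but a secreted protein of differentiating keratinocytes. The 10 genes were chosen by symbol, without a threshold on their values, from 41214 gene identifiers counted, and all 10 passed the filter on low counts. The libraries came from epidermis of C57BL/6 mice at postnatal day 4, 3 labelled ARPC4 ko, whose titles carry the mark hom, and 3 labelled wt. Skin of both groups had been trypsinized. ARPC4 belongs to the Arp2/3 complex, the machine that starts branched actin networks, and the series title links its loss in the epidermis to a psoriasis-like disease. The labels give neither the deleted part of the gene nor the promoter behind the deletion, and do not say whether the replicates of a group are different mice. The p-values therefore describe variation among the libraries at hand, which may be technical. Replicates 1 and 2 of each group carry a date in their titles, and replicate 3 has no date but the mark Tryp.

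Keratins build the intermediate filaments of epithelial cells as pairs of 1 type I and 1 type II protein. Dividing basal keratinocytes make the pair of Krt5 (type II) and Krt14 (type I), and cells that leave the basal layer switch to Krt1 (type II) and Krt10 (type I), which fill the spinous and granular layers. The relative amount of the pairs is therefore widely used to describe how far an epidermal sample has differentiated. The other members add to this scheme. Krt15 is a type I keratin of basal cells and of the hair follicle bulge, Krt2 a type II keratin of the upper layers that in mice is best known from ear, tail and sole skin, and Krt78 and Krt80 are further type II keratins of differentiating epithelia. Krt77 is a type II keratin closely related to Krt1, known in human skin from sweat gland ducts.

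The type I members lie on chromosome 11 and the type II members in the keratin cluster of chromosome 15, all on the minus strand (mm10; gene bounds from GENCODE M21 on GRCm38, the same assembly). Krt14 (ENSMUSG00000045545) spans positions 100203162 to 100207548, Krt15 (ENSMUSG00000054146) 100131758 to 100135928 and Krt10 (ENSMUSG00000019761) 99385254 to 99389364 on chromosome 11. On chromosome 15 Krt5 (ENSMUSG00000061527) spans 101707070 to 101712898, Krt2 (ENSMUSG00000064201) 101810689 to 101818169, Krt1 (ENSMUSG00000046834) 101845426 to 101850794, Krt77 (ENSMUSG00000067594) 101858731 to 101869705, Krt78 (ENSMUSG00000050463) 101946001 to 101954287 and Krt80 (ENSMUSG00000037185) 101347444 to 101370162. Krt77 is thus a near neighbour of Krt1. Krtdap (ENSMUSG00000074199) lies outside both clusters, on the plus strand of chromosome 7 from 30787896 to 30791097.

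The sequences before the starts of a basal keratin, the major type I suprabasal keratin, the scarcest member and the member with the clearest separation between the groups are printed here, so that both layers, a high and a very low level and the Krt77 difference are each represented. Each is the 250 bases before the RefSeq start, 5′ to 3′ on the strand of the gene, from GRCm38.p6, at chr15:101712906-101713155 for Krt5, chr11:99389365-99389614 for Krt10, chr15:101818170-101818419 for Krt2 and chr15:101869706-101869955 for Krt77. Capitals mark TATAAA on either strand, as well as the related letters GATAAA and, of the same kind, the letters TATATA.
Krt5: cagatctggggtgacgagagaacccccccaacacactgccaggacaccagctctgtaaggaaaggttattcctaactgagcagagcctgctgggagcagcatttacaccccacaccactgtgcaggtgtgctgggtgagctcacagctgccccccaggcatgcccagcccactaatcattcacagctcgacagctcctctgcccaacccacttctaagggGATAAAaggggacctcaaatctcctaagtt
Krt10: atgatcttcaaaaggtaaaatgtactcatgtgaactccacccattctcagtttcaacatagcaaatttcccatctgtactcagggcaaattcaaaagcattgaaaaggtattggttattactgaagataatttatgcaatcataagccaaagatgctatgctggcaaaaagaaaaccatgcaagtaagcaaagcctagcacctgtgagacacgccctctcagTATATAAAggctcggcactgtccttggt
Krt2: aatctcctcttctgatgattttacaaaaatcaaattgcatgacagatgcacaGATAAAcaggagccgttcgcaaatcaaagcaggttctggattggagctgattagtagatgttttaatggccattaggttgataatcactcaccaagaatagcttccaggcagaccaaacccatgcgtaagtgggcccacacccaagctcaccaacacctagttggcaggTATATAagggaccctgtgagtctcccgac
Krt77: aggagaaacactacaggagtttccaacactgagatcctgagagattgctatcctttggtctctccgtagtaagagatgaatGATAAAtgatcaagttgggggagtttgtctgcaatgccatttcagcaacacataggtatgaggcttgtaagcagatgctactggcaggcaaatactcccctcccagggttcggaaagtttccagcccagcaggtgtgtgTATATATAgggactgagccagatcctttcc
The windows carry A and T runs of the TATA-box kind close to the start. Krt5 holds GATAAA at bases 30 to 25 before the start, Krt10 TATATA at 28 to 23 overlapping TATAAA at 26 to 21, Krt2 TATATA at 29 to 24, and Krt77 a pair of overlapping TATATA matches from base 30 to base 23. Krt78 holds GATAAA and Krtdap TATAAA, both at 30 to 25. Krt2 and Krt77 each have a further GATAAA, at 198 to 193 and at 169 to 164. Among all 32851 RefSeq windows of 250 bases, 12.4% hold TATAAA, 8.79% GATAAA and 5.25% TATATA. The AP-1 letters TGANTCA, found in 6.75% of all windows, occur in the window of Krtdap and in none of the others used. The AP-2 letters GCCNNNGGC, found in 13.7% of all windows, occur in none of the 6 windows used. Entries matched 7 of the 10 members, with Krt1, Krt15 and Krt80 unmatched, and the Krt14 window begins 1518 bases from the GENCODE start and was not used.

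Depth ran from 17561294 to 20745246 counts in genes in ko and from 19532675 to 22659511 in wt. Arpc4 itself was counted at 67.5, 65.6 and 64.5 CPM in ko replicates 1 to 3, against 72.5, 82.5 and 73.1 CPM in wt replicates 1 to 3. CPM are counts scaled to library size with TMM factors. Arpc4 did not pass the test (log2 fold change -0.21, SE 0.10, edgeR adjusted p = 0.469). Since the count may hold reads from exons that remain, its level is no check on the labelled genotype. The libraries differed widely in their content of basal genes, and wt replicate 2 stood at the low end. The 12 listed basal genes other than keratins summed to 667, 813 and 2725 CPM in ko replicates 1 to 3 and to 1706, 252 and 2365 CPM in wt replicates 1 to 3. Whether such a difference reflects fewer basal cells in a sample or less RNA per cell cannot be told apart in bulk tissue.

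The members studied here made up a large part of the counts in genes of both groups. Reads with more than 1 alignment, 35.1 to 39.4% of those listed in ko and 32.4 to 40.9% in wt, are outside these counts. Together the 10 genes took 12.1, 13.3 and 9.21% of all counts in genes in ko replicates 1 to 3 and 9.91, 10.5 and 8.89% in wt replicates 1 to 3. Most of this was Krt1 and Krt10, which were the 2 genes with the most counts in each library, Krt1 first in the 3 ko libraries and Krt10 first in the 3 wt libraries. Per kilobase of the principal transcript, Krt10 averaged 24787 ± 7923 CPM in ko and 20379 ± 5021 CPM in wt (SD, n = 3 each), and Krt1 22545 ± 7028 CPM in ko and 17188 ± 4301 CPM in wt. Krtdap, whose transcript has 470 bases, came next on this scale, at 7007 ± 1172 CPM per kilobase in ko and 8393 ± 1443 in wt. The basal pair was lower still, with Krt14 at 1317 ± 707 CPM per kilobase in ko and 1012 ± 475 in wt, and Krt5 at 1276 ± 1044 in ko and 1301 ± 818 in wt. Krt15 averaged 353 CPM per kilobase in ko and 653 in wt, Krt77 215 in ko and 535 in wt, and Krt80 281 in ko and 274 in wt. Krt78 was lower in both groups, and Krt2 averaged 0.363 CPM per kilobase in ko and 1.32 in wt.

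The order of these levels was clear only in parts. Krt1 lay above Krtdap, Krtdap above the basal pair and Krt78 above Krt2 in each library of both groups, with ranges that did not overlap. Krt10 lay above Krt1 in 3 of 3 libraries of each group on the per-kilobase scale, but their ranges over libraries overlapped. Krt5 and Krt14 changed places between libraries, as did Krt15 and Krt80 in ko and Krt15 and Krt77 in wt. Krt77 lay below Krt80 in 2 of 3 ko libraries, with overlapping ranges, and above Krt80 in 3 of 3 wt libraries, with separate ranges.

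**Figure D1:**
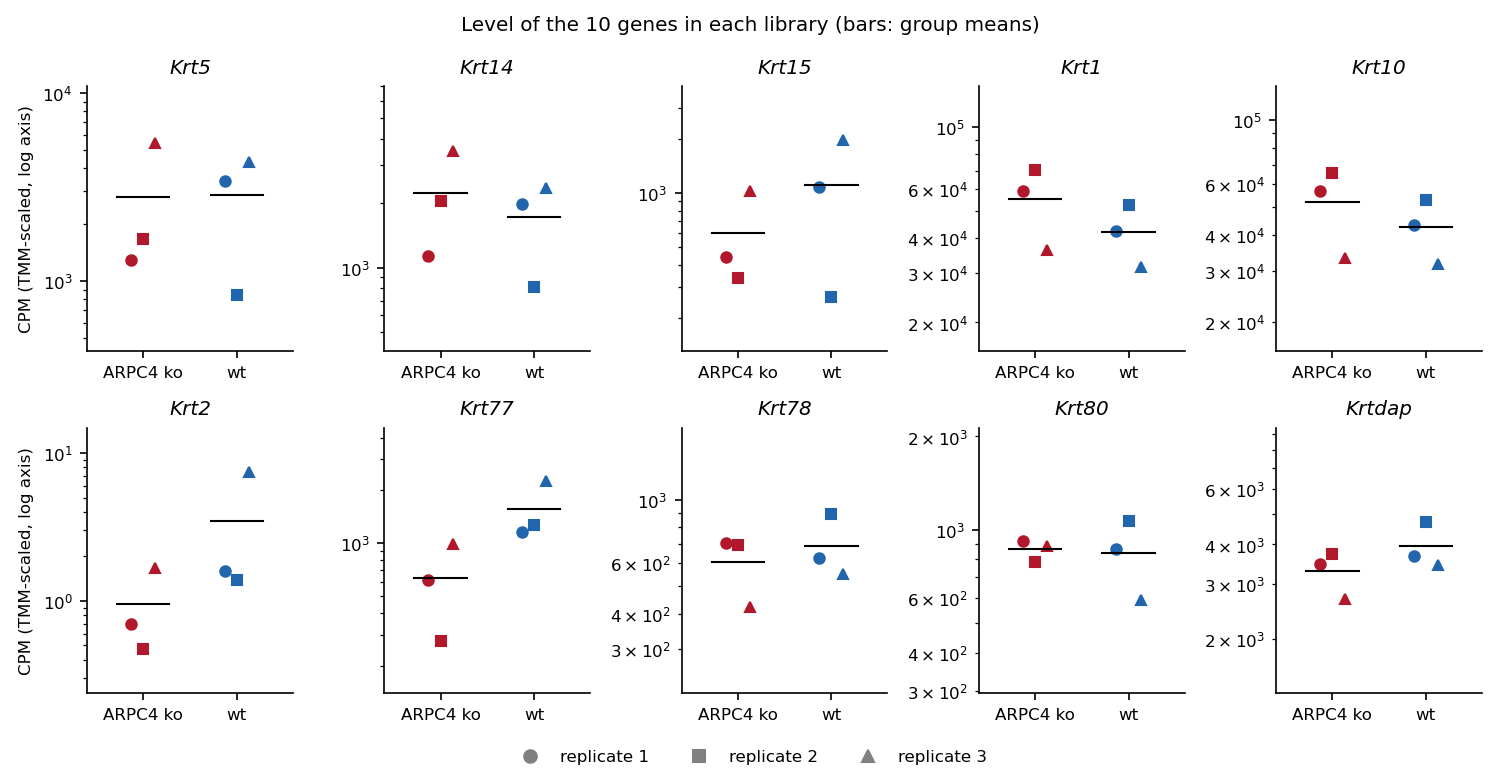
Level of each of the 10 genes in CPM (TMM-scaled, log axis, a separate scale per gene) in ARPC4 ko (left, red) and wt (right, blue), with 1 point per library, its shape giving the replicate and the bar the group mean of 3. The points of the groups overlap in 9 genes, and in Krt77 the ko points, 278 to 990.0 CPM, lie below the wt points, 1163 to 2268 CPM.

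Comparing ko with wt asks whether loss of ARPC4 went with a shift in the normal keratin programme of the layers. None of the 10 members passed the test. With edgeR (quasi-likelihood, Benjamini-Hochberg adjustment over 13704 genes, threshold 0.05) 0 of 10 passed, where 0.219% of all tested genes did. DESeq2 also called 0 of 10, against 4.25% of its tested genes. At an unadjusted p under 0.05 there was 1, Krt77, which was lower in ko, against 13.2% of all tested genes, 5.25% lower and 7.98% higher. The groups did not overlap in 1 of 10 members, Krt77, whose ko libraries lay below the wt libraries, against 19.4% of all tested genes in either direction and 8.03% with ko below wt. Of the 10 log2 fold changes 4 were above and 6 below 0, with a median of -0.10 beside 0.02 over all genes tested.

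The basal keratins varied more between libraries of a group than between the groups. Krt5 was counted at 1292, 1677 and 5443 CPM in ko replicates 1 to 3, against 3424, 846 and 4301 CPM in wt replicates 1 to 3. The undated replicate 3 was the highest of each group and wt replicate 2 the lowest of all 6, so the groups overlapped fully. Group means were 2804 ± 2294 CPM in ko and 2857 ± 1796 CPM in wt (SD, n = 3 each; log2 fold change -0.03, SE 0.73, 95% interval -1.77 to 1.71, edgeR adjusted p = 0.993). The interval leaves room for differences of more than 3-fold in both directions.
Krt14, the type I partner of Krt5, lay at 1138, 2053 and 3519 CPM in ko and at 1982, 814 and 2361 CPM in wt. Again ko replicate 3 was highest and wt replicate 2 lowest, and the log2 fold change was 0.38 (SE 0.51, 95% interval -0.85 to 1.61, edgeR adjusted p = 0.842). Krt15 was at 439, 337 and 1023 CPM in ko and at 1083, 262 and 1984 CPM in wt, with 1 of the 3 wt libraries below the ko libraries and the other 2 above them (-0.89, SE 0.73, 95% interval -2.62 to 0.84, edgeR adjusted p = 0.699). Reads that match several genes bear on this pair, because 13.8% of the 51-base windows of the Krt14 transcript occur in another gene, most often Krt16, and 12.1% of those of Krt5, most often in Krt6a. A read that aligned to several places entered no gene count. The share for Krt15 was 0.545%.

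Krt1 and Krt10 are the pair of the spinous and granular layers. Krt1 was counted at 59234, 70327 and 36484 CPM in ko replicates 1 to 3, against 42474, 52617 and 31502 CPM in wt. Krt10 was counted at 56779, 65514 and 33422 CPM in ko, against 43547, 52722 and 31749.8 CPM in wt. In each group replicate 2 was highest and the undated replicate 3 lowest. The groups overlapped, since ko replicate 3 lay below 2 of the 3 wt libraries. Krt1 averaged 55348 ± 17253 CPM in ko and 42198 ± 10560.1 CPM in wt (SD, n = 3 each; log2 fold change 0.39, SE 0.37, 95% interval -0.49 to 1.27, edgeR adjusted p = 0.749). Krt10 averaged 51905 ± 16592 CPM in ko and 42673 ± 10514 CPM in wt (0.28, SE 0.37, 95% interval -0.60 to 1.17, edgeR adjusted p = 0.835).

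Krt77 was the member with the clearest separation. It was counted at 619, 278 and 990.0 CPM in ko replicates 1 to 3, against 1163, 1269.8 and 2268 CPM in wt replicates 1 to 3. All 3 ko libraries lay below all 3 wt libraries, with means of 629 ± 356 CPM in ko and 1567 ± 609 CPM in wt (SD, n = 3 each). On the log2 scale ko over wt was -1.32 (SE 0.49, 95% interval -2.47 to -0.16), with an unadjusted edgeR p of 0.0313, and Krt77 did not pass over all genes (edgeR adjusted p = 0.318; DESeq2 adjusted p = 0.0752). Over the other settings run, its edgeR adjusted p was lowest, 0.0509, with a term for dated against undated titles and highest, 0.567, without ko replicate 2. The difference had the same direction among dated and among undated libraries, as it did in every other member except Krt5 and Krt80. For Krt77 the dated libraries averaged 448 CPM in ko and 1216 CPM in wt (n = 2 each). The undated ones stood at 990.0 CPM in ko and 2268 CPM in wt (n = 1 each, no replicate check). The Krt77 transcript shares none of its 51-base windows with another annotated gene.

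Krt2, which marks the upper layers of some mouse skin regions, was nearly absent. It had 14, 8 and 32 counts in ko replicates 1 to 3 and 36, 26 and 163 counts in wt replicates 1 to 3. That is 0.696, 0.473 and 1.68 CPM in ko and 1.58, 1.38 and 7.39 CPM in wt. The undated library was the highest of each group, and ko replicate 3 lay just above wt replicates 1 and 2, so the groups overlapped (log2 fold change -1.85, SE 0.82, 95% interval -3.80 to 0.09, edgeR adjusted p = 0.403). Krt2 was the 1 member of 10 that passed when a term for dated against undated titles was fitted (log2 fold change -1.74, edgeR adjusted p = 0.0290), a fit under which 5.17% of all tested genes passed and 1.98% were lower in ko. Its means were 0.949 CPM in the 3 ko libraries and 3.45 CPM in the 3 wt libraries. In the dated libraries alone they were 0.584 CPM in ko and 1.48 CPM in wt (n = 2 each). At so few counts counting error adds to the differences between libraries, and its part was not tested.

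Krt78, Krt80 and Krtdap had narrower intervals than the other members. Krt78 stood at 704, 692 and 421 CPM in ko and at 623, 888 and 550.2 CPM in wt (log2 fold change -0.18, SE 0.27, 95% interval -0.83 to 0.46, edgeR adjusted p = 0.860). Krt80, a keratin found near desmosomes, stood at 921, 783 and 884 CPM in ko and at 865, 1065 and 589.9 CPM in wt (0.04, SE 0.23, 95% interval -0.52 to 0.60, edgeR adjusted p = 0.967). Both genes overlapped between the groups, and the ko libraries of Krt80 lay within 1.18-fold of each other, at 863 ± 71.3 CPM (SD, n = 3), closer than those of any other member. Krtdap stood at 3478, 3728 and 2674 CPM in ko and at 3688, 4714 and 3432 CPM in wt (-0.26, SE 0.22, 95% interval -0.79 to 0.27, edgeR adjusted p = 0.722). In Krtdap 1 ko library lay below the lowest wt library, and 2 lay above it but below the highest. The intervals of Krt78, Krt80 and Krtdap do not reach a 2-fold difference.

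**Figure D2:**
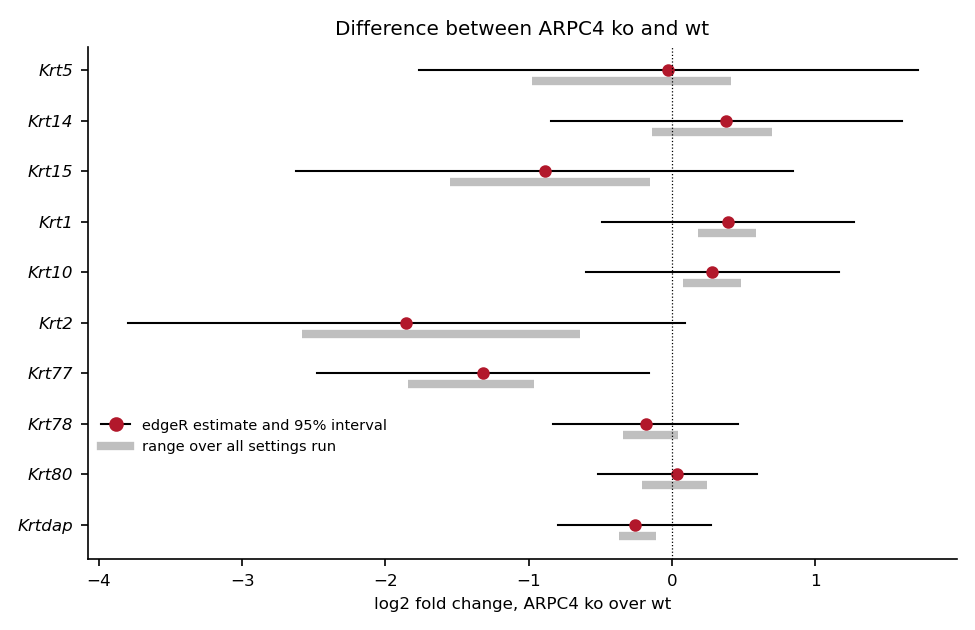
Log2 fold change of ARPC4 ko over wt for each member, with the edgeR estimate (red point), its 95% interval (black line) and the range of the estimate over all fits run (grey bar). The interval of Krt77, -2.47 to -0.16, is the one that does not include 0, and its grey bar and those of Krt2, Krt15 and Krtdap lie wholly below 0.

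The spread between single libraries differed from member to member. Between the highest and the lowest of the 6 libraries Krt5 differed 6.43-fold, Krt14 4.32-fold and Krt15 7.57-fold, where the median over all tested genes was 1.72-fold. Krt1 differed 2.23-fold, Krt10 2.06-fold, Krt78 2.11-fold, Krt80 1.81-fold and Krtdap 1.76-fold. Krt77 (8.17-fold) and Krt2 (15.6-fold), suprabasal by class, had the widest ranges, and these folds also span the difference between the groups. Within ko Krt77 differed 3.56-fold, Krt2 3.55-fold and Krt5 4.21-fold. Within wt Krt77 differed 1.95-fold, Krt2 5.34-fold and Krt5 5.08-fold. Described over the 6 libraries on the log2 CPM scale, Krt1 and Krt10 had a Pearson correlation of 0.99, Krt5 and Krt14 one of 0.93, Krt5 and Krt15 one of 0.90, Krt78 and Krtdap one of 0.95, and Krt77 and Krt2 one of 0.91. Krt5 and Krt1 had one of -0.79, and Krt77 and Krt1 one of -0.86. These values share the libraries and their scaling, and they pool ko with wt, so they also hold the differences between the groups.

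The balance of suprabasal to basal keratins was taken within each library, which needs no scaling between libraries. Krt1 and Krt10 together had 47.7, 36.4 and 7.80 times the counts of Krt5 and Krt14 together in ko replicates 1 to 3, against 15.9, 63.5 and 9.49 times in wt replicates 1 to 3. The lowest ratio was that of ko replicate 3 and the highest that of wt replicate 2, and the groups overlapped. On the log2 scale the balance averaged 4.58 ± 1.41 in ko and 4.41 ± 1.42 in wt (SD, n = 3 each), a difference of 0.17 that was far smaller than the spread within either group (two-sided exact permutation test, p = 1.0, with 0.1 the smallest p that 3 against 3 allows). The sign of this difference turned under several other choices. It was -0.11 for Krt10 over Krt14 and -0.28 for the lists of suprabasal and basal genes without keratins, and leaving out single libraries moved it between -0.41 and 0.97.

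**Figure D3:**
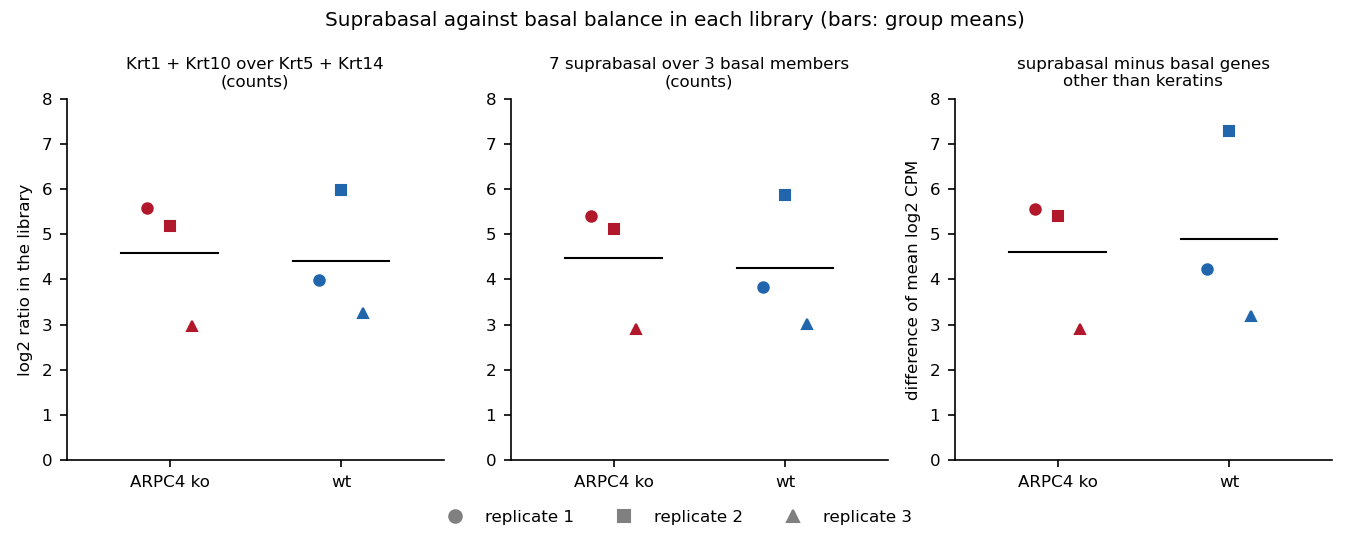
Balance of suprabasal to basal transcripts in each library of ARPC4 ko (left, red) and wt (right, blue), for Krt1 plus Krt10 over Krt5 plus Krt14, for all 7 suprabasal over all 3 basal members, and for the lists of genes other than keratins (difference of mean log2 CPM), with bars at the group means of 3. The libraries keep 1 order in all panels, from ko replicate 3 at the bottom (2.96 on the log2 scale in the first panel) to wt replicate 2 at the top (5.99).

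Genes of the layers other than keratins, in the lists used here, ordered the libraries in the same way as the keratin pairs did. The log2 balance of the keratin pairs was lowest in ko replicate 3 (2.96), followed by wt replicate 3 (3.25), wt replicate 1 (3.99), ko replicate 2 (5.19), ko replicate 1 (5.58) and wt replicate 2 (5.99). The lists without keratins gave 2.90, 3.19, 4.22, 5.39, 5.55 and 7.28 in that order of libraries. The 3 genes whose pattern over the 6 libraries was most like that of Krt5, among 3780 genes compared, were Bcam, a laminin-binding adhesion molecule, the cyclin Ccnd2 and the hemidesmosomal integrin Itga6, with Pearson correlations of 0.994, 0.990 and 0.989 on log2 CPM. For Krt1 they were the small GTPase Rhob (0.996), the transporter Slc10a6 (0.993) and the kinase gene Rps6kb2 (0.992). For Krt77 they were the serpin Serpina3b and Dcaf7 (0.983 each) and the ribosomal protein gene Rps19 (0.977). All these correlations pool ko with wt and so also hold the differences between the groups. Serpina3b stood at 29.7, 8.57 and 36.9 CPM in ko and at 80.0, 85.6 and 184 CPM in wt, and did not pass (log2 fold change -2.22, edgeR adjusted p = 0.169).

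Ratios between members of the same layer were compared in each library. Of 8 ratios, 3 did not overlap between the groups, all with Krt1 as the denominator and all lower in ko. The ratios over Krt1 were those of Krt10, Krt2, Krt77, Krt78, Krt80 and Krtdap, and the rest were over Krt5. With the counts of each tested gene set over those of Krt1 in the same way, 18.8% of all genes did not overlap and 16.7% lay lower in ko. Most genes without overlap in that ratio thus lay lower in ko. The ratios over Krt5 overlapped, and no such share over all genes was taken for them. None of the 8 ratios could pass, since the smallest p of the exact permutation test was 0.1 before adjustment. Krt1 had 1.04, 1.07 and 1.09 times the counts of Krt10 in ko replicates 1 to 3, against 0.975, 0.998 and 0.992 times in wt replicates 1 to 3. The small difference in log2 Krt10 over Krt1, -0.11, was larger than the spread within the groups, with SDs of 0.03 in ko and 0.02 in wt (n = 3 each; two-sided exact permutation p = 0.1, adjusted over 8 ratios p = 0.267). The antisense gene Gm11940 overlaps exons of Krt10. It had 226 to 393 counts in ko and 202 to 374 in wt, and all ambiguous reads of chromosome 11 made up 0.0433 to 0.0534% of the reads listed in ko and 0.0433 to 0.0576% in wt. The share of 51-base windows found in another gene was 2.35% for Krt10 and 0 for Krt1, and its part in the ratio was not tested.

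Krt78 and Krtdap also lay lower relative to Krt1. Krt1 had 84.1, 102 and 86.6 times the counts of Krt78 in ko replicates 1 to 3, against 68.1, 59.2 and 57.3 times in wt. The difference in log2 Krt78 over Krt1 was -0.56 (two-sided exact permutation p = 0.1, adjusted p = 0.267), with means of -6.50 ± 0.15 in ko and -5.94 ± 0.13 in wt (SD, n = 3 each). Krt1 had 17.0, 18.9 and 13.6 times the counts of Krtdap in ko, against 11.5, 11.2 and 9.18 times in wt (difference in log2 Krtdap over Krt1 -0.63, two-sided exact permutation p = 0.1, adjusted p = 0.267). Both differences kept their sign and stayed without overlap with Krt10 in place of Krt1, at -0.45 and -0.52 (two-sided exact permutation p = 0.1 each). Krt10 followed Krt1 closely over the libraries (Pearson correlation 0.99), so this exchange could change little. Over Krt10, 14.6% of all tested genes did not overlap and 12.2% lay lower in ko. The 3 ratios share their denominator and are not independent of each other.

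**Figure D4:**
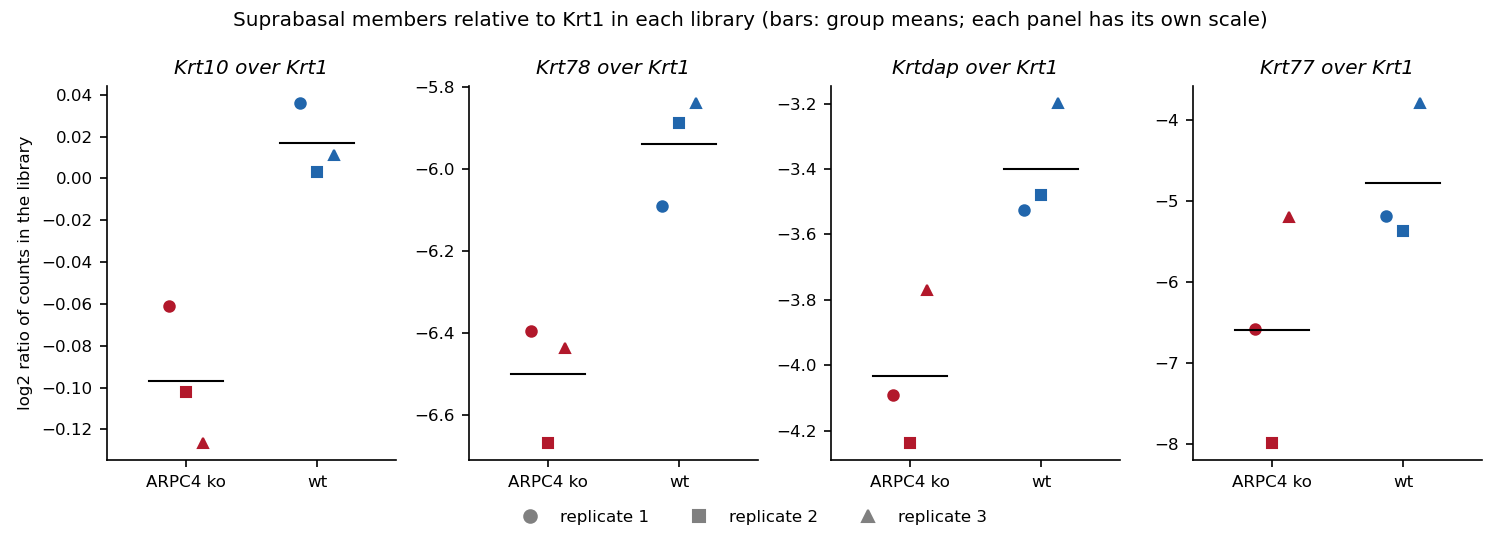
Log2 ratio of the counts of Krt10, Krt78, Krtdap and Krt77 to those of Krt1 in each library of ARPC4 ko (left, red) and wt (right, blue), with bars at the group means of 3 and a separate scale per panel. In the first 3 panels the ko points lie below the wt points, as with Krt10 over Krt1 at -0.13 to -0.06 in ko and 0.00 to 0.04 in wt, and in the Krt77 panel ko replicate 3 lies within the wt range.

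The remaining ratios overlapped. Krt1 had 95.8, 253 and 36.9 times the counts of Krt77 in ko, against 36.5, 41.4 and 13.9 times in wt, so that ko replicate 3 fell among the wt libraries (difference in log2 Krt77 over Krt1 -1.80, two-sided exact permutation p = 0.2, adjusted p = 0.343). Within the basal layer the ratio of Krt14 to Krt5 was 0.881, 1.22 and 0.646 in ko and 0.579, 0.962 and 0.549 in wt, with overlapping groups (difference in log2 0.40, two-sided exact permutation p = 0.3). Krt15 over Krt5 was 0.339, 0.201 and 0.188 in ko and 0.316, 0.310 and 0.461 in wt (difference in log2 -0.61, two-sided exact permutation p = 0.3). Krt80 over Krt1 and Krt2 over Krt1 differed by -0.29 and -1.99 on the log2 scale, with two-sided exact permutation p of 0.4 and 0.3. Single libraries weighed on the ratios of Krt2 and Krt77. Krt2 over Krt1 differed by -1.03 without wt replicate 3, by -1.40 without ko replicate 2, by -2.79 without ko replicate 3 and by -2.61 without wt replicate 2. Krt77 over Krt1 differed by -1.11 without ko replicate 2 and by -2.50 without ko replicate 3.

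The partners of these keratins in the cell were described by counts and medians, from lists chosen with earlier results of these data known. Over all tested genes 0.219% passed with edgeR, 4.25% with DESeq2 and 13.2% at an unadjusted edgeR p under 0.05. The groups did not overlap in 19.4% of all tested genes. Of 12 basal genes other than keratins 0 passed with edgeR (unadjusted 0, DESeq2 0), with 6 above and 6 below 0 and a median log2 fold change of 0.03. The transcription factor of stratified epithelia Trp63 stood at 179, 208 and 417 CPM in ko and at 179.9, 88.3 and 308 CPM in wt (0.48, edgeR adjusted p = 0.776), and the cadherin Cdh3 had a log2 fold change of 0.80 and the integrin Itga2 one of 0.42 (edgeR adjusted p = 0.681 and 0.893). Of 17 measured suprabasal and granular genes 0 passed (unadjusted 0, DESeq2 0), with 8 above and 9 below 0 and a median of -0.01. Loricrin (Lor), the main protein of the cornified envelope, stood at 10488, 8508 and 6576 CPM in ko and at 10939, 18193 and 10458 CPM in wt (-0.63, edgeR adjusted p = 0.471). The transglutaminase Tgm3 had groups without overlap, at 366, 497 and 315 CPM in ko and 285, 281 and 299 CPM in wt (0.45, edgeR adjusted p = 0.378). The desmosomal cadherin gene Dsg1b had a log2 fold change of 0.75 (edgeR adjusted p = 0.428).
Apart from Lor, the more abundant genes of that list had log2 fold changes between -0.59 for the filaggrin relative Flg2 and 0.36 for the plakophilin Pkp1, among them -0.15 for Dmkn and -0.25 for Sbsn, the neighbours of Krtdap on chromosome 7, -0.39 for Casp14, -0.25 for the plakin Ppl, 0.30 for Dsc1, 0.16 for Dsg1a, 0.12 for Cdsn and -0.01 for involucrin (Ivl). Their edgeR adjusted p ran from 0.499 to 0.996.

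Of 12 measured partners of the keratin filament, mainly desmosomal plaque and linker proteins, 0 passed with edgeR or DESeq2 and 1 was higher at an unadjusted p under 0.05, with a median of 0.05. That 1 was Sfn, the adaptor 14-3-3 sigma that binds keratins, at 1758, 1995 and 1892 CPM in ko and 1205, 1381 and 1526 CPM in wt, with no overlap (log2 fold change 0.46, SE 0.17, edgeR adjusted p = 0.313). Desmoplakin (Dsp), which anchors keratin to desmosomes, stood at 9306, 10797 and 7227 CPM in ko and at 8350.2, 8657 and 5840 CPM in wt (0.26, edgeR adjusted p = 0.773), and Jup, Pkp2 and Trim29 had log2 fold changes of 0.11, -0.54 and 0.01. Pkp2 was also without overlap, with ko below wt. Of 18 regulators of the layers 0 passed with edgeR and 1 with DESeq2. Before adjustment 2 had p under 0.05 with higher and 1 with lower values (median 0.17), against 7.98% higher and 5.25% lower over all tested genes. The transcription factor gene Tfap2c was without overlap, at 58.7, 64.5 and 83.4 CPM in ko and 42.0, 42.7 and 56.8 CPM in wt (0.55, edgeR adjusted p = 0.283). Gata3, named after its values were seen, was without overlap in the other direction (-0.24, edgeR adjusted p = 0.538). The Notch target Hes1 stood at 34.7 ± 6.24 CPM in ko and 61.6 ± 26.2 CPM in wt (-0.83, edgeR adjusted p = 0.331), and Klf4 had a log2 fold change of 0.23.

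Keratins of injured and hyperproliferative epidermis were high in the same ko libraries. Krt6b stood at 764, 3006 and 1942 CPM in ko against 6.34, 20.8 and 21.1 CPM in wt, and Krt16 at 1733, 4743 and 3537 CPM in ko and at 128, 96.1 and 233 CPM in wt, and these 2 of 39 tested keratins of other programmes passed (edgeR adjusted p = 0.0407 and 0.0459). Krt6a, at 647, 1715 and 1634 CPM in ko and 134, 152 and 59.0 CPM in wt, and Krt17 (log2 fold change 0.60) did not pass with edgeR (adjusted p = 0.0658 and 0.488). With DESeq2 3 of these keratins were called, all higher in ko, among them Krt6a (DESeq2 adjusted p = 3.52e-11) and not Krt17 (DESeq2 adjusted p = 0.461). Krt14, the relative with which Krt16 shares sequence, and Krt5, which shares it with Krt6a, did not pass.

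Markers of other cell types that could accompany the epidermis were low beside Krt1 and Krt10. The 6 fibroblast markers, all with log2 fold changes above 0, summed to 162 to 721 CPM in ko and 52.9 to 156 CPM in wt, and the 5 endothelial markers to 8.60 to 17.3 CPM in ko and 2.82 to 3.83 CPM in wt. The 5 melanocyte markers, again all above 0, summed to 76.9 to 126 CPM in ko and 60.7 to 71.4 CPM in wt. Beside the lower Krt77 values in ko, the 4 sebaceous markers, all with log2 fold changes below 0, summed to 69.0 to 105 CPM in ko and 201 to 258 CPM in wt. The 5 Merkel cell markers summed to 1.52 to 2.34 CPM in ko and 3.19 to 5.35 CPM in wt, with the defining factors Atoh1 and Sox2 at no more than 0.105 CPM in ko and 0.272 CPM in wt. The 9 hair follicle markers, among them keratins of the root sheaths, all had log2 fold changes below 0 and summed to 4330 to 5468 CPM in ko and 4342 to 9798 CPM in wt, with overlap. The part of these cells in the level of Krt77 was not tested.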

How the data were processed

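Messenger RNA of mouse epidermis was sequenced in 3 ARPC4 ko and 3 wt libraries. The authors deposited raw counts of reads per Ensembl gene, with unassigned reads listed per chromosome. Per the labels' protocols the kit was TruSeq Stranded mRNA and single-end reads had 51 bases. The submitters' processing notes list HTSeq, Bowtie 1.1 and TopHat2 2.0.12, with mm10 as the build. How strand and features were set in counting is not given in the sources used here. Depth ran from 17561294 to 22659511 counts in genes. Unassigned reads, 33.3 to 41.6% of those listed, stayed out of library sizes and tests. Nearly all of them had more than 1 alignment.

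The genotype label set the groups, and the marks I, II and Tryp in titles were read as replicates 1, 2 and 3. All replicates of a group differed beyond sampling noise (chi-square over its degrees of freedom, 24.4 to 105). Same-numbered libraries did not all deviate together (correlations of -0.19, 0.47 and 0.67), so numbers were not taken to pair samples.

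edgeR 4.0.16 in R 4.3.3 tested 13704 genes kept by filterByExpr after TMM scaling (glmQLFit, robust, current settings; glmQLFTest; Benjamini-Hochberg, threshold 0.05). Each SE is the absolute log2 fold change divided by the root of F. DESeq2 1.42.0 and limma-voom (limma 3.58.1) served as alternatives. Ratios and the balance were tested by exact two-sided permutation of libraries in scipy 1.17.1. Levels per kilobase use the length of the GENCODE principal transcript. Windows of 51 bases were compared exactly with all GENCODE M21 transcripts, not with the genome. Tests were checked on simulated counts with 200 changed genes. The simulation gave every gene the same dispersion and held no difference between dated and undated libraries, so it does not cover genes as variable as Krt5. The rule named all members, from each list the 3 genes with the smallest p and those of at least 1000 CPM, and for Krt5, Krt1 and Krt77 the 3 genes most alike among those of at least 50 CPM. Keratins of other programmes were kept to a few sentences. The values of 1 regulator that the rule names are not reported here. The members and lists were chosen with earlier results of these data known, and the motifs were not fixed beforehand.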

Additional observations from a re-analysis of the deposited data

Results flagged for a closer look

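Reads with more than 1 alignment, which entered no gene count, were more frequent in ko on chromosome 15, where the type II keratins lie. Their share of the reads in each deposited table was 0.625, 1.03 and 1.11% in ko replicates 1 to 3 and 0.485, 0.466 and 0.544% in wt replicates 1 to 3, with means of 0.921 ± 0.259% in ko and 0.498 ± 0.0407% in wt (SD, n = 3 each; two-sided exact permutation p = 0.1, the smallest that 3 against 3 allows). The groups did not overlap. Which genes these reads came from is not given in the files. Of the 51-base windows of Krt6a and Krt6b, both on chromosome 15, 61.8% and 49.7% occur in another gene, against 12.1% for Krt5 and 0 for Krt1, Krt2, Krt77 and Krt78. On chromosome 11 the shares overlapped, at 0.894 to 1.28% in ko and 0.823 to 1.03% in wt.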

How the results depend on the processing

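The count of members past the threshold was 0 in the main analysis and under 19 of 20 other settings. It was 1 (Krt2, -1.74) with the dated title as a covariate. Among the settings at 0, the stricter threshold of 0.01 on the main fit could give no other count. The suprabasal over basal difference was 0.17 in the main analysis. It was -0.11 for Krt10 over Krt14 and -0.28 for the lists without keratins. Without 1 library it ran from -0.41 to 0.97, negative without ko replicate 1 (-0.33), ko replicate 2 (-0.14), wt replicate 1 (-0.04) or wt replicate 3 (-0.41). The replicate block averages the differences of same-numbered libraries, so its balance difference, 0.17, equals the main one by arithmetic. Under that block 0 members passed the threshold, and 354 genes in all passed, against 30 in the main analysis. Over all genes the count was also 709 with the dated title as a covariate, 717 with the basal list mean as one, 650 with DESeq2, 227 in the dated libraries, 57 with no filter, 20 by total counts, 18 with a filter of 1 CPM in 3 libraries or the older fit, 64 without ko replicate 3, and 0 with limma-voom or without ko replicate 2 or any 1 wt library. Over all settings Krt77 stayed below 0 (-1.85 to -0.96), as did Krt2 (-2.59 to -0.64), Krt15 (-1.55 to -0.15) and Krtdap (-0.37 to -0.11), and Krt1 (0.18 to 0.58) and Krt10 (0.08 to 0.48) stayed above it. The signs of the others turned. Without 1 library Krt5 ran from -0.97 to 0.41, Krt14 from -0.14 to 0.70 and Krt78 from -0.34 to 0.044. Krt5 was 0.32, 0.24, 0.10 and 0.41 without ko replicate 1, ko replicate 2, wt replicate 1 and wt replicate 3. Krt14 was -0.14 without ko replicate 3 and Krt78 0.044 without wt replicate 2. Krt80 was -0.21 in the dated libraries alone and -0.01, -0.02 and -0.18 without ko replicate 1, ko replicate 3 and wt replicate 3. The cause was not tested. The older quasi-likelihood fit was added after the data were seen. All 8 ratios kept their sign in every setting run, though the replicate block could not change their values. Without 1 library the log2 differences ran from -2.79 to -1.03 for Krt2 over Krt1, -2.50 to -1.11 for Krt77 over Krt1, -0.59 to -0.03 for Krt80 over Krt1, -0.64 to -0.48 for Krt78 over Krt1, -0.76 to -0.53 for Krtdap over Krt1, -0.13 to -0.10 for Krt10 over Krt1, -0.87 to -0.42 for Krt15 over Krt5 and 0.16 to 0.65 for Krt14 over Krt5. With 3 libraries per group the exact tests cannot go below 0.1. Krt2 had 8 to 163 counts per library, and the part of counting error in its spread was not tested.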

Other observations

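Keratins outside the layers described above, those of hair, other epithelia and injured epidermis, mostly had negative log2 fold changes. Of 39 tested, 28 were below and 11 above 0, with a median of -0.43. At an unadjusted p under 0.05 there were 9 lower and 4 higher (edgeR), against 5.25% lower and 7.98% higher over all genes tested. The 4 higher were Krt6a, Krt6b and Krt16, reported above, and Krt9. Among the lower ones, named after their values were seen, the hair keratin Krt33b stood at 78.8, 56.2 and 30.3 CPM in ko and at 225, 213 and 55.8 CPM in wt (-1.58), and Krt83 at 152, 98.5 and 61.7 CPM in ko and at 380.3, 352 and 94.7 CPM in wt (-1.40). In both genes the undated replicate 3 was the lowest of its group, and the groups overlapped. Krt79, a keratin of the follicle opening and sebaceous duct, was at 1713, 1197 and 1436 CPM in ko and 2334, 2404 and 1720.0 CPM in wt, with no overlap (-0.57, SE 0.22, edgeR adjusted p = 0.330). The inner root sheath keratin Krt71 was at 1824, 2040.2 and 1284 CPM in ko and 2121, 3514 and 1149 CPM in wt. The part of follicle content in these values was not tested.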
